A study of Mus musculus with 38 samples.

Results

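Genes of early B cell development are described here, 9 in all: Rag1, Rag2, Dntt, Vpreb1, Vpreb3, Igll1, Ebf1, Pax5 and Il7r. They were chosen by name, and each was found once by its Ensembl identifier, so there were 9 members among the 47729 genes of the whole marrow table and 9 among the 46679 genes of the sorted cell table. RNA was sequenced from bone marrow of female C57BL/6 mice aged 6 to 7 weeks in 4 treatment groups: no treatment, zoledronic acid (ZA, a bisphosphonate that acts on osteoclasts, at 100 µg per kg), recombinant human G-CSF (a cytokine of neutrophil production, 3 daily doses of 50 µg per kg) and the combination, with G-CSF begun 2 days after ZA. Whole marrow gave 9 libraries, of which 3 came from G-CSF mice and 2 from each of the other groups. Myeloid or osteoclast precursors, sorted as cells that lacked lineage markers (CD45R, the B cell form of CD45, among them) and carried CD115, the receptor for M-CSF, gave 8 libraries in sequencing run 1, with 3 libraries each for G-CSF and the combination and 1 each for no treatment and ZA. The same run held 3 whole marrow libraries, 1 each for untreated, G-CSF and ZA.

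B cells arise in bone marrow from lymphoid progenitors under IL-7, which signals through the receptor chain encoded by Il7r. The transcription factors Ebf1 and Pax5 start and then fix the B cell fate. The enzyme pair encoded by Rag1 and Rag2 cuts immunoglobulin gene segments, and terminal transferase, encoded by Dntt, adds untemplated bases where the segments are joined. A rearranged heavy chain is then tested with a surrogate light chain made of VpreB and λ5, the products of Vpreb1 and Igll1, and Vpreb3 encodes a related protein of early B cells. In bulk tissue, fewer cells of a type and less RNA per cell cannot be told apart.

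The members lie on 7 chromosomes of the mm10 assembly (GENCODE vM21 annotation). Rag1 (ENSMUSG00000061311, chr2:101638282-101649501, minus strand) and Rag2 (ENSMUSG00000032864, chr2:101624718-101632529, plus strand) face each other across 5752 bases. Igll1 (ENSMUSG00000075370, chr16:16860671-16863985) and Vpreb1 (ENSMUSG00000059305, chr16:16868403-16870843) are both on the minus strand, 4417 bases apart. The others are Dntt (ENSMUSG00000025014, chr19:41029275-41059525), Vpreb3 (ENSMUSG00000000903, chr10:75943057-75949657), Ebf1 (ENSMUSG00000057098, chr11:44617317-45008091), Pax5 (ENSMUSG00000014030, chr4:44524757-44710487) and Il7r (ENSMUSG00000003882, chr15:9505788-9530176). The labels do not state whether the libraries kept strand, so reads of overlapping genes cannot be told apart. A gene model on the minus strand, B230118H07Rik, overlaps both Rag genes, and Top3b overlaps Vpreb1 on the opposite strand. Antisense models overlap Ebf1 and Pax5, a pseudogene overlaps Vpreb3, and Dntt, Igll1 and Il7r are free of overlaps. Vpreb2, a near copy, shares 739 of its 759 transcript bases in order with Vpreb1 (97.4%), so the split of reads between these 2 genes is uncertain.

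Upstream windows of the neighbouring Rag pair and of Igll1 are shown because the Rag genes received different calls in marrow and Igll1 varied closely with Vpreb1. Each window is the 250 bases before the RefSeq start site (GRCm38.p6), read on the gene's strand. All 9 members had an entry. Capitals mark matches, on either strand, to 2 E-boxes (CAGGTG and CAGCTG, letters bound by E2A-type factors), an Ikaros-type core (TGGGAA) and a CCAAT box (CCAAT).
Rag1, chr2:101649533-101649782, minus strand: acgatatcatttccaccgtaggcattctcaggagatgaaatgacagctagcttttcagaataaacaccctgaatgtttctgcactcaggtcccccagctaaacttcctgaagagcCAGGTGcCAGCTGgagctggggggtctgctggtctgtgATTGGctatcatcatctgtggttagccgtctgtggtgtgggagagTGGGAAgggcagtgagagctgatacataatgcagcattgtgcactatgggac
Rag2, chr2:101624462-101624711, plus strand: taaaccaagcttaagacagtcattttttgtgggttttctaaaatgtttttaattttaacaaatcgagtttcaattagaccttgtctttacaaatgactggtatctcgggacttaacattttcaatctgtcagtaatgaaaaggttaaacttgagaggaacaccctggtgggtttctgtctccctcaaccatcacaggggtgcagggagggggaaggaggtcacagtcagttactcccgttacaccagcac
Igll1, chr16:16863986-16864235, minus strand: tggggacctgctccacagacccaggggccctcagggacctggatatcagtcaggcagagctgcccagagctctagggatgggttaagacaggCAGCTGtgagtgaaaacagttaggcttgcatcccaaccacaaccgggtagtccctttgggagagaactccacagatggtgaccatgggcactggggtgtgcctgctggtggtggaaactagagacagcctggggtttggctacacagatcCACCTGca
The Rag1 window held both E-boxes, at bases -135 to -130 and -128 to -123 from the start site, with a CCAAT match at -97 to -93 and an Ikaros-type match at -52 to -47. Igll1 held CAGCTG at -158 to -153 and CAGGTG at -8 to -3, the latter on the opposite strand. None of the searched letters were found in the Rag2 window. CAGGTG was present in 17.2% of 32851 such windows, CAGCTG in 13%, the Ikaros-type core in 21.6% and CCAAT in 33.8%. A TATA box (TATAAA, 12.4% of windows) was also searched and was found in no member's window. These matches describe letters, and binding was not measured.

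Whole marrow libraries held 6.24 to 16.2 M (mega) estimated counts (median 8.44), run 1 precursor libraries 21.1 to 33.2 M, and run 1 marrow libraries 6.83 to 16.2 M. The run 1 marrow libraries were the same libraries as replicate 2 of untreated, G-CSF and ZA marrow (over 99% of genes at 1 TPM or more agreed within 1%). The limit set by a count of 0, taken as 3 counts, lay at 0.174 to 0.679 CPM in marrow and 0.0793 to 0.127 CPM in precursors (counting error only). Untreated marrow replicate 1 stood apart: small RNA genes took 39.95% of its TPM, against 7.96 to 15.2% in the other 8 libraries. In addition, 50 genes were at 1 TPM or more in all 5 marrow libraries with G-CSF and at 0.1 or less in the 4 without it, and 11 genes showed the opposite, so genetic background and G-CSF cannot be told apart in any marrow comparison across that division. The labels name 1 strain for all groups and number biological replicates without tying them to separate animals, so a p-value here measures spread among these libraries, which may be technical. Below, CPM are counts per mega-count of library total, scaled by TMM (a correction for composition between libraries), shown as mean ± SD, and TPM are length-corrected.

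Per length and pooled over the 4 groups of whole marrow, Vpreb3 and Pax5 had the highest median levels and the Rag genes the lowest. Median TPM over the 9 libraries was 97.4 for Vpreb3, 67.4 for Pax5, 28.7 for Vpreb1, 25.6 for Igll1, 10.9 for Ebf1, 9.64 for Dntt, 3.83 for Il7r, 2.61 for Rag1 and 2.06 for Rag2. Every neighbouring pair in that order had overlapping ranges over the libraries. Vpreb3 spanned 37.1 to 169 TPM and Rag2 1.15 to 4.77 TPM, so the ends of the order did not overlap. The order at the low end differed between groups: mean TPM of Il7r was below that of Rag1 in untreated (2.77 against 3.06) and ZA marrow (2.31 against 2.43), and above it in the other groups. The marrow label can be set against a defining B lineage marker: Cd79a, a signalling chain of the B cell receptor, was at 239.5 CPM in untreated marrow (n = 2).

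**Figure D1:**
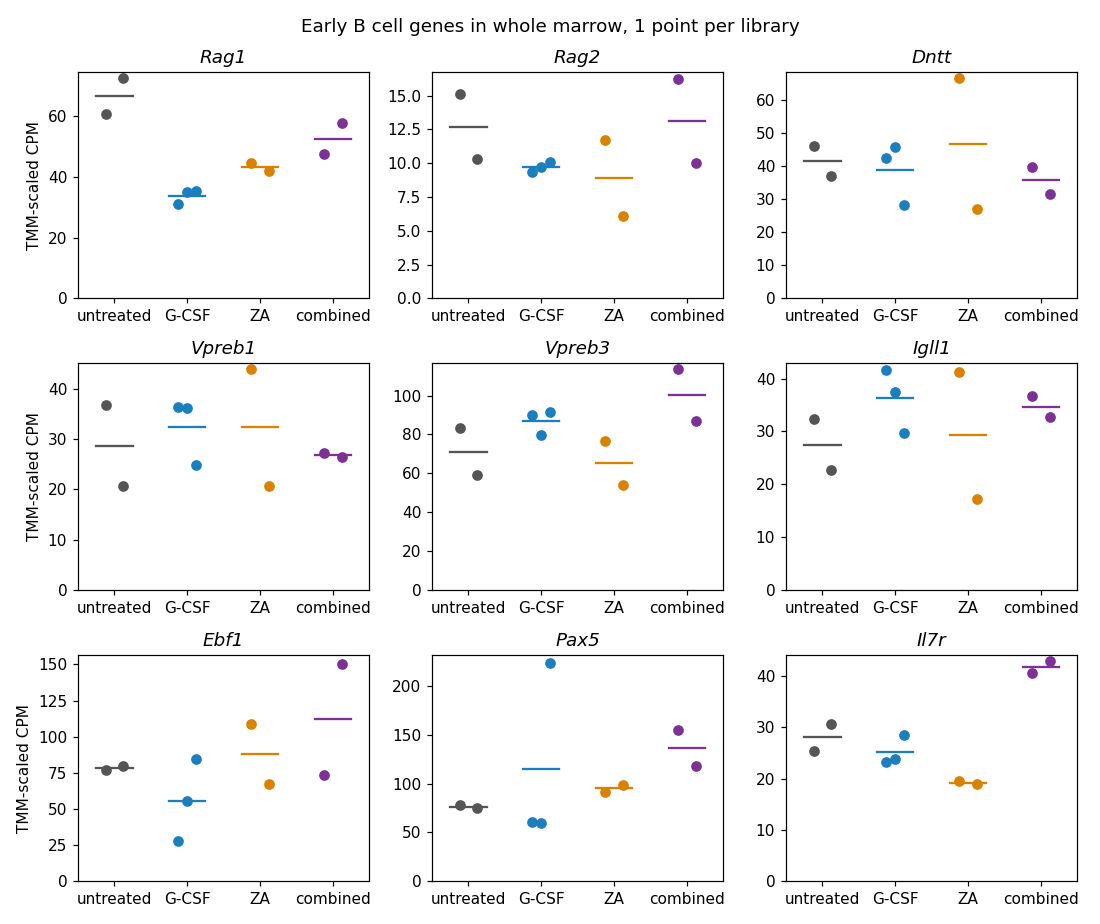
TMM-scaled CPM of the 9 early B cell genes in each of the 9 whole marrow libraries (points) with the group mean (line); every axis starts at 0. Rag1 sat between 31.0 and 35.4 in the 3 G-CSF libraries and at 60.9 and 72.5 in the untreated ones, while G-CSF replicate 3 stood at 223 for Pax5.

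The first comparison set marrow from mice given G-CSF alone against untreated marrow. Rag1, of the recombinase pair, was the member that passed the test and was lower with G-CSF. Its level was 60.9 and 72.5 CPM in the untreated libraries, and 31.0, 35.0 and 35.4 CPM in the 3 G-CSF libraries. The groups did not overlap: every G-CSF library lay below both untreated ones. Means were 66.7 ± 8.25 CPM (SD, n = 2) and 33.8 ± 2.46 CPM (SD, n = 3), and the log2 change of Rag1 was -0.98 ± 0.16 (SE, adjusted p = 0.00585). Of all 14737 genes tested, 6.91% were called lower in this comparison, and 1 of 9 members was. Without untreated replicate 1, Rag1 fell by 1.09 ± 0.18 (adjusted p = 0.00984).

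The Rag1 call depends on the scale. On log2(TPM + 1) with limma, Rag1 was at -0.12 ± 0.34 (adjusted p = 0.807) while the median over all genes stood at 0.61. When TPM were rescaled over protein-coding genes without globins, an alternative chosen after seeing the data, Rag1 was at -0.79 ± 0.21 (adjusted p = 0.0494) and the all-gene median at 0.08. Rag1 in TPM was 1.65 and 4.48 in the untreated libraries, which enclosed all G-CSF values (2.05 to 2.93). The lower untreated value is that of replicate 1, the library rich in small RNA; the part of that share in the result was not tested.

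Rag2, whose product forms the recombinase with that of Rag1, was at 15.1 and 10.3 CPM untreated and at 9.35, 9.75 and 10.1 CPM with G-CSF. The groups did not overlap, but the gap was narrow, and the log2 change of -0.39 ± 0.33 did not pass (adjusted p = 0.476). Non-overlap on the lower side was common, at 21.4% of genes tested, and covered these 2 members. Dntt overlapped between the groups, at 46.2 and 37.2 CPM untreated and 42.5, 45.9 and 28.4 CPM with G-CSF (-0.10 ± 0.36, adjusted p = 0.885). The difference between the changes of Rag1 and Rag2 was not tested.

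In edgeR, no surrogate light chain gene passed with G-CSF, while limma on log2(TPM + 1) called Vpreb3 higher. Vpreb1 was at 36.7 and 20.6 CPM untreated and at 36.3, 36.2 and 24.9 CPM with G-CSF. Its log2 change was 0.19 ± 0.35 (adjusted p = 0.759), with overlapping groups. Igll1, which encodes λ5, was at 32.3 and 22.6 against 41.7, 37.5 and 29.8 CPM (0.41 ± 0.34, adjusted p = 0.461). For Vpreb3 the values were 83.1 and 58.9 against 90.0, 79.5 and 91.5 CPM (0.30 ± 0.22, adjusted p = 0.404). All 3 genes overlapped between the groups, and their estimates were above 0. The near copy Vpreb2 was at 2.73 ± 0.77 CPM untreated (n = 2) and 3.31 ± 0.80 with G-CSF (n = 3).

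Ebf1, Pax5 and Il7r also did not pass with G-CSF in edgeR with the filter on low counts. Without that filter, Pax5 was called. Ebf1 was at 76.9 and 79.9 CPM untreated and 27.8, 55.4 and 84.4 CPM with G-CSF (-0.49 ± 0.46, adjusted p = 0.518). Pax5 was at 77.6 and 75.0 against 60.7, 59.9 and 223 CPM. The G-CSF libraries of Pax5 split into 2 below and 1 far above the untreated ones, and the estimate of 0.59 ± 0.56 (adjusted p = 0.527) carries that spread. Il7r was at 25.4 and 30.7 against 23.2, 23.9 and 28.6 CPM (-0.16 ± 0.17, adjusted p = 0.588). Over the 9 members the median log2 change was -0.10, against 0.02 over all genes.

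**Figure D2:**
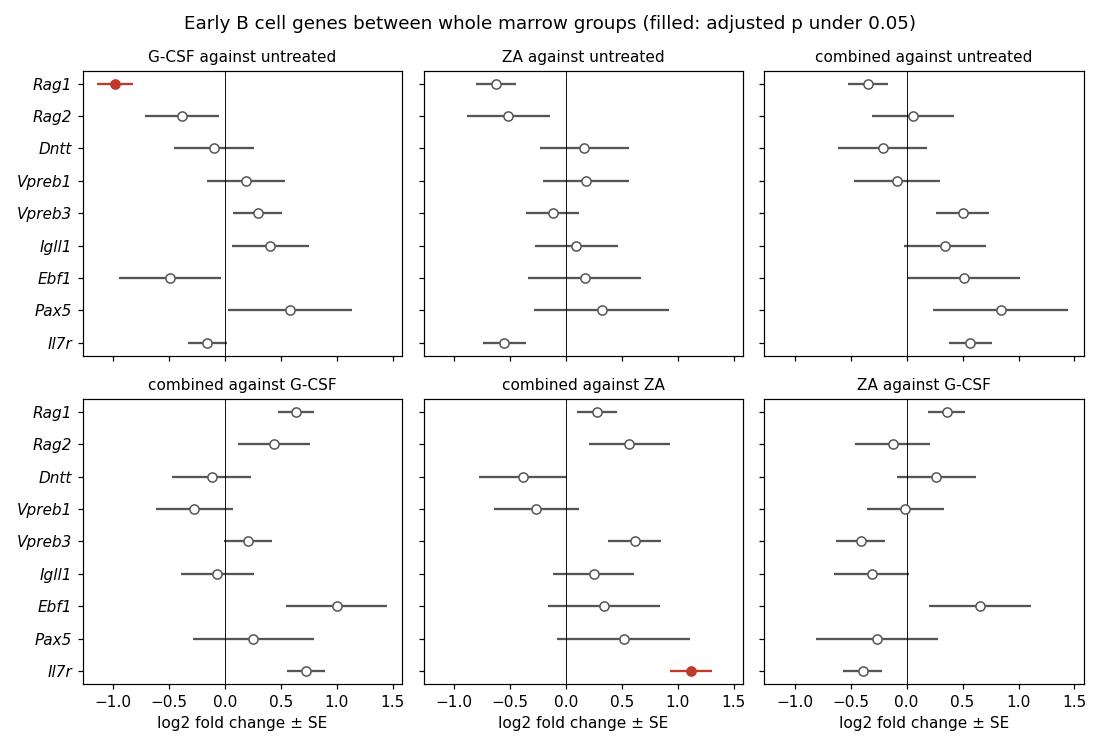
Log2 fold change (x axis, points) with its standard error (bars) for each early B cell gene in the 6 pairwise comparisons of whole marrow groups; filled points had an adjusted p under 0.05 in edgeR. Rag1 in G-CSF against untreated (-0.98) and Il7r in combined against ZA (1.12) are the filled points.

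Other B lineage lists were read against all genes tested, of which 6.91% were called lower and 4.93% higher with G-CSF. Of 18 further B lineage transcription factors, 3 fell and 1 rose: Bach2, a repressor that holds back plasma cell fate, fell by 1.94 ± 0.22 in log2 units (adjusted p = 0.000808), Runx1 by 1.55 ± 0.31 and Irf8 by 1.40 ± 0.23, while Bcl11a rose by 0.67 ± 0.18 (adjusted p = 0.038). In the pre-B receptor and signalling list, 1 of 16 changed. It was Enpep, the aminopeptidase known as the BP-1 antigen of pre-B cells, which rose by 1.42 ± 0.35 (adjusted p = 0.0299). Among 14 genes of V(D)J joining, Hmgb1, a DNA-bending protein that assists the recombinase, fell by 1.39 ± 0.14 (adjusted p = 0.000426) and no other passed. Counts of 1 in 16 and 1 in 14 are near the shares over all genes. Cd79a (-0.17 ± 0.18, adjusted p = 0.566) did not pass.

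Markers of later B cells and of other lymphoid cells were also called lower. Of 15 mature B cell genes, 5 fell and none rose, where 6.91% of all genes were called lower and 4.93% higher. H2-Ob, a class II accessory chain, fell by 3.38 ± 0.33 (adjusted p = 0.000354), Cd22 by 2.38 ± 0.29, Ms4a1 (CD20) by 1.12 ± 0.16 and Bank1 by 0.92 ± 0.18. The list's median was -0.88. Jchain, of antibody-secreting cells, fell by 3.21 ± 0.72 (adjusted p = 0.0313) and was the sole call among 6 plasma cell genes tested. T cell genes were called lower for 6 of 10 tested and higher for 1, with Trac and Cd3e at 0.0536 and 0.0634 mean CPM with G-CSF against 7.93 and 5.04 untreated. The gene called higher, named after its values were seen, was Cd3d, another CD3 chain, at 36.8 ± 5.65 CPM with G-CSF (n = 3) and 9.12 ± 0.729 untreated (n = 2), a log2 change of 2.01 ± 0.22 (adjusted p = 6e-04). Of 8 plasmacytoid dendritic cell genes, 3 fell, led by Ly6d (log2 change -2.03 ± 0.18, adjusted p = 0.000213), which also stands in the lymphoid progenitor list as its single call among 9. Summed over each list, mature B cell TPM ran from 225 to 1502 in untreated and 471 to 712.5 in G-CSF marrow, and T cell TPM from 22.5 to 43.2 (Ptcra listed at 0) and 29.2 to 37.6; their part in the Rag1 result was not tested.

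With ZA alone, no member passed, and 0.0339% of all genes did. Rag1 was at 44.7 and 42.1 CPM with ZA, below both untreated libraries, with a log2 change of -0.62 ± 0.18 (unadjusted p = 0.00666, adjusted p = 0.391 in edgeR). Il7r was at 19.5 and 18.9 CPM, also below both, at -0.55 ± 0.19 (unadjusted p = 0.018, adjusted p = 0.46 in edgeR). These 2 of 9 members had an unadjusted p under 0.05, and DESeq2 and limma called none. The share of all genes at an unadjusted p under 0.05 is not given for the marrow comparisons, here or below. Such member counts therefore cannot be weighed against all genes. Pax5 (91.9 and 99.0 CPM) lay above both untreated libraries at 0.32 ± 0.60, and the other 6 members overlapped, Vpreb3 (-0.12 ± 0.24) and Ebf1 (0.17 ± 0.51) among them. Non-overlap on the lower side covered 17.8% of genes tested, and the share on the higher side, where Pax5 lay, is not given. ZA replicate 2 was the higher ZA library for Rag2 (11.7 against 6.09 CPM), Dntt (66.7 against 27.1), Vpreb1 (43.9 against 20.7) and Igll1 (41.2 against 17.3), so these genes differed more between the 2 ZA libraries than between the group means.

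Il7r, the receptor gene, was highest in the combination. It was at 40.5 and 42.9 CPM in combined marrow, above every other marrow library, whose values ran from 18.9 to 30.7 CPM. Against ZA alone, Il7r rose by 1.12 ± 0.19 on the log2 scale (41.7 ± 1.71 against 19.2 ± 0.38 CPM, SD, n = 2 each, adjusted p = 0.0112). This was 1 of 9 members, where 1.87% of genes were called higher. Each group has 2 libraries, and leaving out any of these 4 kept the estimate above 1 and gave adjusted p from 0.0606 to 0.0806. On log2(TPM + 1) the change was 1.51 ± 0.38 (adjusted p = 0.0787), and on rescaled TPM 1.34 ± 0.24 (adjusted p = 0.0211). The other 8 members did not pass in edgeR. Estimates were above 0 for Rag1 (0.28 ± 0.18), Rag2 (0.57 ± 0.36), Vpreb3 (0.62 ± 0.24, adjusted p = 0.213), Igll1 (0.25 ± 0.36), Ebf1 (0.34 ± 0.50) and Pax5 (0.52 ± 0.60), and below 0 for Dntt (-0.38 ± 0.39) and Vpreb1 (-0.26 ± 0.38).

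Against untreated marrow, the combination called none of the 9 members, with 7.72% of all genes called. Il7r was at 0.57 ± 0.19 (unadjusted p = 0.0139, adjusted p = 0.102 in edgeR), the 1 member with an unadjusted p under 0.05, and DESeq2 called none. The 4 members above both untreated libraries, none of which passed, were Il7r, Vpreb3 (114 and 86.7 CPM, 0.50 ± 0.24), Igll1 (36.7 and 32.6 CPM, 0.34 ± 0.37) and Pax5 (155 and 118 CPM, 0.84 ± 0.60). Non-overlap on the higher side covered 27.6% of genes. On log2(TPM + 1), where the all-gene median moved to 0.87, limma called Vpreb1, Vpreb3, Igll1 and Il7r higher. That scale also gave many more higher calls over all genes than edgeR, as listed at the end. These calls therefore cannot be read as particular to the members. On rescaled TPM (median 0.24), limma called none. Pax5 passed without G-CSF replicate 3, the library at 223 CPM (0.84 ± 0.17, adjusted p = 0.0214). Rag1 lay below both untreated libraries, at 47.4 and 57.7 CPM (-0.35 ± 0.18, adjusted p = 0.265). The share of all genes with a gap on that lower side is not given. Rag2 (0.06 ± 0.36), Dntt (-0.22 ± 0.40), Vpreb1 (-0.08 ± 0.38) and Ebf1 (0.51 ± 0.50) overlapped with untreated marrow.

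Setting the combination against G-CSF asks what ZA added. No member passed in edgeR, where 0.00679% of all genes did. Il7r (0.73 ± 0.17, unadjusted p = 0.0017, adjusted p = 0.257 in edgeR) and Rag1 (0.64 ± 0.16, unadjusted p = 0.0031, adjusted p = 0.274 in edgeR) were the 2 members with an unadjusted p under 0.05, and both lay above all 3 G-CSF libraries, as did 14.2% of genes tested. DESeq2 called Il7r (0.74 ± 0.22, adjusted p = 0.0487). Ebf1, at 73.4 and 150.5 CPM in combined marrow, was at 1.00 ± 0.45 (adjusted p = 0.488) and overlapped G-CSF. Without the filter on low counts, Ebf1 was called (1.00 ± 0.21, adjusted p = 0.000274). Shares of all genes called by DESeq2 or without the filter are not given. The other 6 members overlapped as well, with estimates of 0.44 ± 0.32 for Rag2, -0.12 ± 0.36 for Dntt, -0.27 ± 0.34 for Vpreb1, 0.20 ± 0.21 for Vpreb3, -0.07 ± 0.33 for Igll1 and 0.26 ± 0.54 for Pax5. Between ZA and G-CSF no member passed in edgeR or DESeq2, with 5.06% of genes called. Il7r alone had an unadjusted p under 0.05 there (-0.39 ± 0.17, unadjusted p = 0.049, adjusted p = 0.275 in edgeR), and Ebf1 was called without the filter (0.63 ± 0.21, adjusted p = 0.0468). In edgeR with the filter, ZA against G-CSF gave 0.36 ± 0.16 for Rag1 (adjusted p = 0.284), -0.13 ± 0.33 for Rag2, 0.26 ± 0.35 for Dntt, -0.01 ± 0.34 for Vpreb1, -0.41 ± 0.22 for Vpreb3 (adjusted p = 0.36), -0.31 ± 0.33 for Igll1, 0.66 ± 0.45 for Ebf1 and -0.26 ± 0.55 for Pax5.

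Additivity of the 2 drugs was tested with an interaction term on the log2 scale. Rag1 and Il7r had the 2 largest estimates among the members and the only unadjusted p under 0.05. Rag1 was at 1.26 ± 0.24 (adjusted p = 0.136 in edgeR) and Il7r at 1.28 ± 0.26 (adjusted p = 0.139 in edgeR). With the filter, edgeR called 0.00679% of all genes. DESeq2 called both members (adjusted p = 0.00289 and 0.0108), as did edgeR without the filter (0.0102 and 0.0267). The shares of all genes called in those settings are not given, so these calls cannot be weighed against all genes. The Rag1 levels were 66.7 (untreated), 43.4 (ZA), 33.8 (G-CSF) and 52.6 CPM (combined). For Il7r the levels were 28.1, 19.2, 25.2 and 41.7 CPM in the same order. The interaction estimates of the other members were 0.95 ± 0.49 for Rag2, -0.29 ± 0.53 for Dntt, -0.45 ± 0.51 for Vpreb1, 0.32 ± 0.32 for Vpreb3, -0.16 ± 0.50 for Igll1, 0.83 ± 0.68 for Ebf1 and -0.07 ± 0.81 for Pax5.

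The ligand and downstream genes of the receptor were described from a list of 17 genes, 16 of them tested in marrow. Il7, which encodes the ligand, was at 0.59 ± 0.30 CPM untreated and 0.66 ± 0.73 under ZA. It was at 1.91 ± 0.68 CPM under G-CSF and 1.72 ± 0.09 under the combination. The untreated and ZA means lay inside the range of limits set by a count of 0 in marrow (0.174 to 0.679 CPM). All libraries with G-CSF (1.21 CPM or more), ZA replicate 3 (1.18 CPM) and untreated replicate 1 (0.803 CPM) lay above that range. Il7 passed in no comparison (adjusted p = 0.222 for G-CSF against untreated). Cish, a feedback inhibitor of cytokine signalling, fell with G-CSF (-2.72 ± 0.50, adjusted p = 0.00968) and was lower in the combination than with ZA (-2.64 ± 0.58, adjusted p = 0.0374). Crlf2, whose product pairs with the Il7r chain to form the TSLP receptor, was also lower in the combination than with ZA (-0.86 ± 0.18, adjusted p = 0.0284). No gene of this list rose in either comparison. In the same combined against ZA comparison, 3 of 18 B lineage factors rose, where 1.87% of all genes were called higher, namely Irf4 (0.98 ± 0.20), Pou2af1 (0.89 ± 0.16) and Myb (0.71 ± 0.15), and Enpep rose by 1.45 ± 0.34. Enpep also rose in the combination against untreated (2.43 ± 0.37, adjusted p = 0.00552), from 2.92 to 16.0 mean CPM.

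Across the 9 marrow libraries the members did not move as one block. Pearson r of log2 CPM was 0.86 for Dntt and Vpreb1, 0.84 for Vpreb1 and Igll1 and 0.77 for Vpreb3 and Igll1. The neighbouring Rag genes gave 0.34. Pax5 ran against Dntt (-0.49) and Vpreb1 (-0.40). With the mean standardised profile of the 9 genes, Rag2 had the highest r (0.89) and Rag1 the lowest (0.28). Each gene is part of that mean, which raises its r. All these r are descriptions over 9 libraries that share 4 treatments and differ in depth and small RNA share. ZA replicate 3 had the lowest mean profile, at -1.105, while the other libraries ran from -0.327 to 0.662. The part of that library in these r was not tested. Among 9861 other genes at 5 CPM or more, those most like the mean profile were Slc6a20a (0.93), Tut4 (0.92), Xrcc2 (0.91), Tug1 (0.90), Mrgpra2a (0.89) and Cpt1a (0.89). Picking the highest of so many r over 9 libraries can by itself give high values. A link of these genes to the members was not tested.

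**Figure D3:**
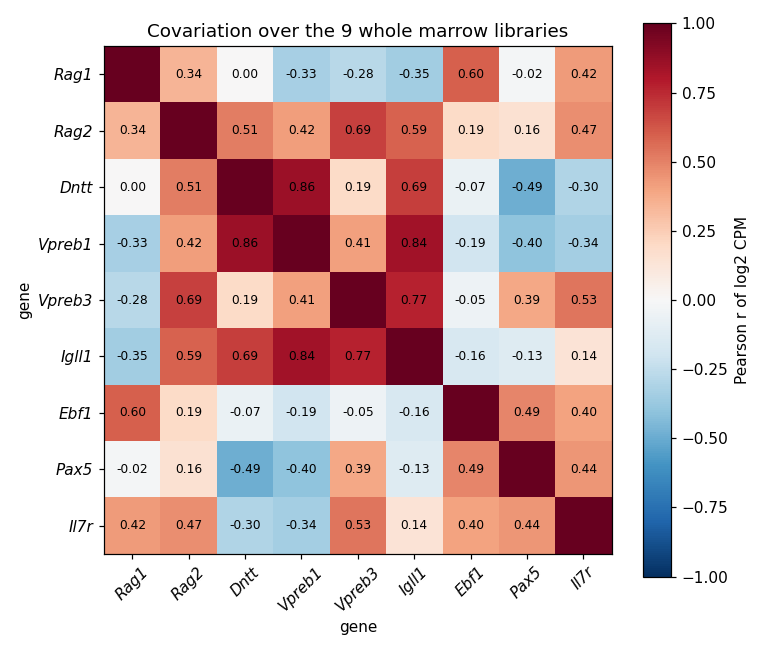
Pearson r of log2 CPM between each pair of early B cell genes over the 9 whole marrow libraries (colour from -1, blue, to 1, red; values in the cells). Dntt, Vpreb1 and Igll1 form the reddest group (0.69 to 0.86), and Pax5 is blue against Dntt and Vpreb1.

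In sorted precursors every member was far below whole marrow of the same run. No precursor library of the 8 reached the lowest of the 3 marrow libraries for any of the 9 genes; in the comparison tested below, 22.2% of genes had such a gap. Mean precursor CPM as a percent of the marrow mean was 0.621 for Rag1, 3.92 for Rag2, 6.19 for Dntt, 1.27 for Vpreb1, 0.614 for Vpreb3, 0.839 for Igll1, 2.74 for Ebf1, 3.59 for Pax5 and 3.82 for Il7r. The fit of 5 precursor and 3 marrow libraries with treatment as a term called all 9 lower, against 22.4% of the 18705 genes tested (median log2 change -5.76 over the members and 0.06 over all genes). All 9 also passed the low-count filter among the precursor libraries alone. That filter was lenient there: untreated and ZA have 1 library each, so 1 library past the minimum count was enough. Estimated counts in the 8 precursor libraries were 1 to 28.3 for Rag1 and 1.3 to 22 for Igll1. The log2 changes ran from -4.29 ± 0.24 for Dntt (adjusted p = 1.37e-05) to -7.46 ± 0.50 for Vpreb3 (adjusted p = 4.47e-05).

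Rag1 shows the size of the gap: it was at 92.6, 44.6 and 54.4 CPM in untreated, G-CSF and ZA marrow and at 0.03 to 1.07 CPM in the 8 precursor libraries (-6.85 ± 0.37, adjusted p = 1.25e-05). For Vpreb3 the marrow libraries had 76.8, 103.5 and 95.4 CPM, and the precursors 0.03 to 1.47. Vpreb2 was listed at 0 in 7 of 8 precursor libraries. The B lineage marker Cd79a was also at a low share (0.730% of the marrow mean). Ighm, the µ heavy chain gene, named after its values were seen, kept a larger share: it was at 394 ± 61.3 CPM in precursors (n = 8) and 2785 ± 2723 in marrow (n = 3), 14.15% of the marrow mean (log2 change -2.19 ± 0.37, adjusted p = 0.00312). By contrast, Csf1r, which encodes the CD115 of the sort, was at 432 ± 25 CPM in precursors (n = 8) against 134 ± 37.6 in marrow (n = 3), a rise of 1.80 ± 0.18 (adjusted p = 0.000218). The sort itself selected against CD45R-positive cells and for CD115, so neither direction is independent of how the cells were chosen.

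**Figure D4:**
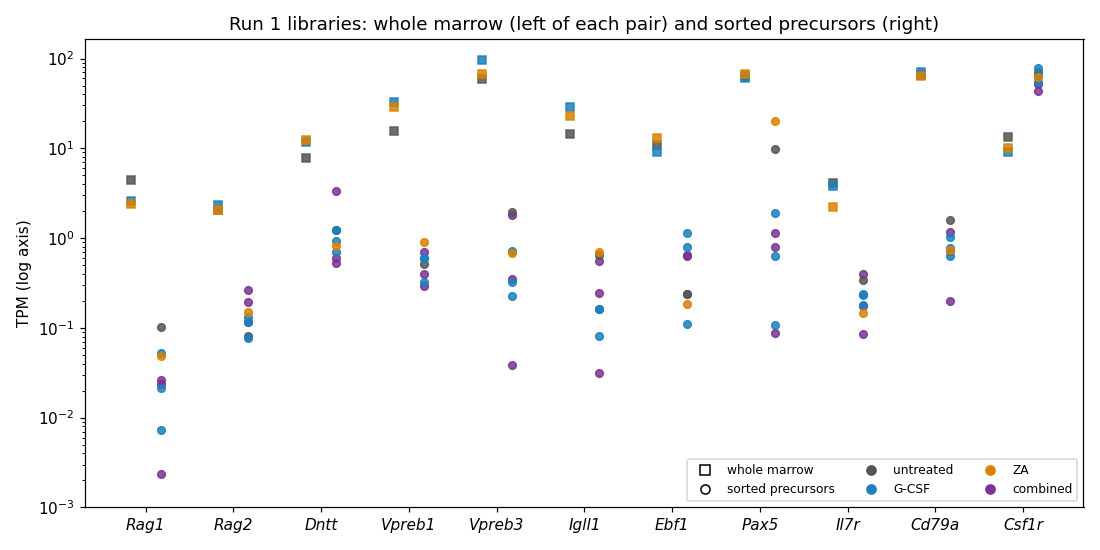
TPM (log axis) of the 9 early B cell genes and of Cd79a and Csf1r in the 3 whole marrow libraries (squares) and 8 sorted precursor libraries (circles) of run 1, coloured by treatment. Every circle lies below every square for the 9 genes, and the reverse holds for Csf1r.

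Other lists were read against all genes tested, of which 22.4% were called lower and 19.3% higher in precursors. Of 18 other B lineage transcription factors, 10 were lower in precursors and 4 higher. Pou2af1, a B cell coactivator, was lower (log2 change -7.13 ± 0.21), as were Lef1 (-5.21 ± 0.39) and Spib (-4.43 ± 0.18), while Irf8, also a factor of monocyte and dendritic cell fate, was higher (2.71 ± 0.34, adjusted p = 0.000735). Pre-B receptor genes were lower for 11 of 16 and higher for 3. V(D)J joining genes, which serve general DNA repair, were lower for 4 of 14 and higher for 4, near those shares, with a median of 0.31. Among these Xrcc5 was lower (-5.65 ± 0.47) and Dclre1c, the Artemis nuclease, higher (1.32 ± 0.17). Mature B cell genes were lower for 11 of 15 and T cell genes for 10 of 12, while 7 of 8 genes of the CD115 and monocyte list were higher and none lower.

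The traces left in precursors differed between libraries and members. Pax5 was the most uneven. It was at 15.2 CPM in the untreated and 32.2 CPM in the ZA library, and at 2.81, 0.20 and 0.98 CPM with G-CSF and 0.22, 1.25 and 2.20 CPM with the combination. Both libraries without G-CSF lay above all 6 with it, a gap in this direction that 3.1% of genes tested and 2 of 9 members showed, the other being Igll1. The Pax5 estimate with against without G-CSF was -4.13 ± 0.84 (unadjusted p = 0.00229, adjusted p = 1.00 in edgeR), and limma on log2(TPM + 1) gave -3.17 ± 0.39 (adjusted p = 0.0215). The untreated and ZA groups have 1 library each, assumed in the fit to vary like the others. Of 18779 genes, 0% were called by edgeR in this comparison, with 682 at an unadjusted p under 0.05, and 25 by DESeq2, which did not call Pax5 (adjusted p = 0.158).

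Igll1 was at 0.69 CPM in the untreated and 0.75 CPM in the ZA library against 0.16, 0.21 and 0.09 with G-CSF and 0.43, 0.58 and 0.04 with both. Its estimate was -1.56 ± 0.83 (unadjusted p = 0.0965, adjusted p = 1.00 in edgeR), on 1.3 to 22 estimated counts a library.

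Cd79a and Ebf1 were ordered differently among the precursor libraries. Cd79a was at 3.34 CPM in the untreated and 1.59 CPM in the ZA precursor library, the latter within the range of the 6 libraries with G-CSF (0.69 to 3.03). Ebf1 went the other way in order: 1.06 untreated and 0.85 with ZA, with 4.90, 4.26 and 0.49 CPM with G-CSF and 4.66, 1.08 and 3.58 with both (1.73 ± 0.93, adjusted p = 1.00). Pax5 has 20 annotated transcripts, and its estimated counts for the same marrow library differed between the tables (459 against 926 in untreated) at equal TPM (63.2). The length the tables imply for the gene was 0.308 in the marrow table and 0.658 in the sorted cell table, relative to the typical gene. Its CPM should therefore be compared only within a table. The same holds for the other members, because TMM scaling also differed. Untreated marrow replicate 2 had a TMM factor of 0.895 in the marrow table and 0.700 in the sorted cell table. Its Rag1 level was 72.5 CPM in the former and 92.6 CPM in the latter.

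Dntt was the member with the highest share left when the precursor libraries were pooled over treatments. This order did not hold with ZA alone. There Pax5 was at 32.2 CPM in precursors and 226.5 in marrow, and Dntt at 2.62 and 81.7. For Dntt, the precursor libraries apart from 1 lay between 2.29 and 3.80 CPM, and combined replicate 2 stood at 10.5 CPM. Rag1 was at 1.07 CPM in the untreated and 0.53 in the ZA library, at 0.53, 0.09 and 0.23 with G-CSF and at 0.42, 0.28 and 0.03 with both (-1.49 ± 0.86, adjusted p = 1.00). Il7r stayed between 0.68 and 1.94 CPM (0.06 ± 0.47, adjusted p = 1.00). With against without G-CSF, Dntt (0.32 ± 0.58), Rag2 (0.56 ± 0.47), Vpreb1 (-0.26 ± 0.60) and Vpreb3 (-0.77 ± 1.07) overlapped. Between combined and G-CSF precursors, 3 libraries each, no member passed in edgeR, DESeq2 or limma, and 0% of genes did in edgeR, with 1306 genes at an unadjusted p under 0.05 and 62 called by DESeq2. Rag2 alone had an unadjusted p under 0.05 there: 0.76, 1.05 and 0.95 CPM with both against 0.44, 0.37 and 0.52 with G-CSF, without overlap, as for 6.18% of genes tested on the higher side (1.04 ± 0.45, unadjusted p = 0.0493, adjusted p = 0.712 in edgeR). The other 8 members overlapped, with estimates of -0.19 ± 0.95 for Rag1, 0.78 ± 0.57 for Dntt, 0.19 ± 0.61 for Vpreb1, 0.98 ± 1.13 for Vpreb3, 1.08 ± 0.93 for Igll1, -0.05 ± 0.81 for Ebf1, -0.07 ± 1.00 for Pax5 and 0.13 ± 0.47 for Il7r.

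**Figure D5:**
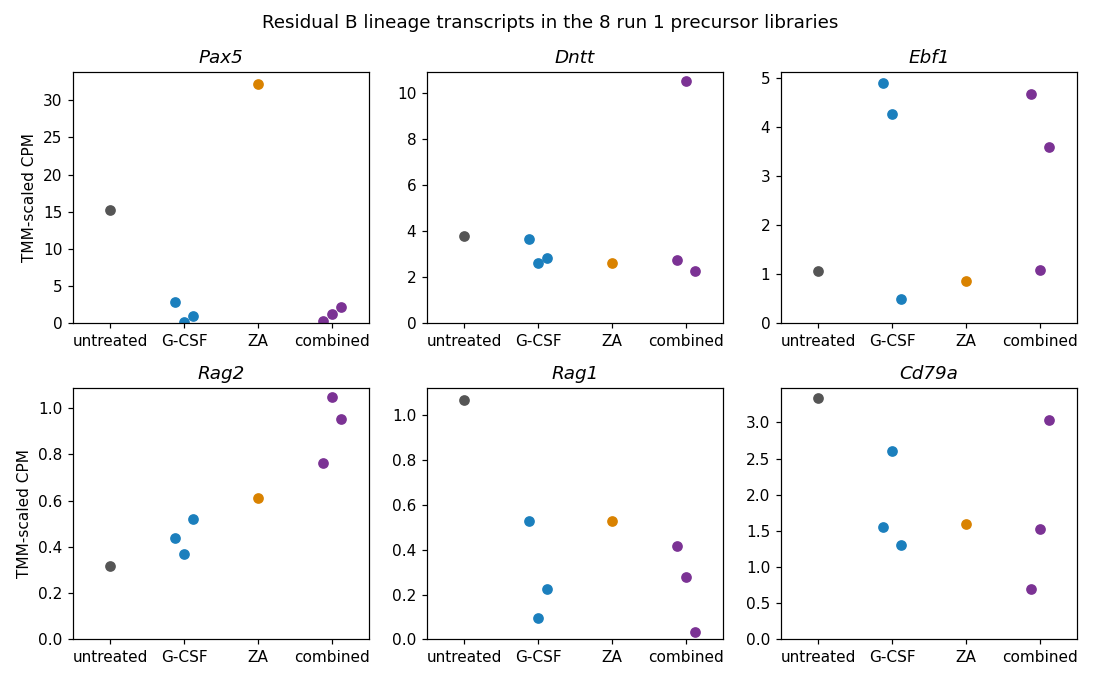
TMM-scaled CPM of Pax5, Dntt, Ebf1, Rag2, Rag1 and Cd79a in the 8 run 1 precursor libraries (points) by treatment; every axis starts at 0. Pax5 stood at 15.2 and 32.2 in the libraries without G-CSF and under 3 in the rest, and Dntt at 10.5 in combined replicate 2.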

How the data were processed

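Illumina libraries of total RNA were prepared with the NEB Ultra kit, per the labels' protocols. Salmon (version not given), DESeq2 1.16.1 and build mm10 are named in the submitters' processing notes. The authors' estimated counts per gene are fractional and equal TPM times a length per gene times a library factor. Deposited TPM have 1 common total per library. Symbols came from GENCODE vM21 (98.9% of the marrow and 99.0% of the sorted cell identifiers matched), and upstream windows from RefSeq on GRCm38.p6.

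The members and lists were chosen with earlier results of these data known. Counts were rounded and tested in R 4.3.3 with edgeR 4.0.16 (robust quasi-likelihood, TMM, filterByExpr with minimum count 10 and minimum total 15, Benjamini-Hochberg adjusted p under 0.05 over all genes tested). Whole marrow was fitted with 4 groups (14737 genes), run 1 precursors with 4 groups (18779 genes), and run 1 precursors against run 1 marrow with treatment as a term (18705 genes). SE is the log2 change over the square root of F. Adjusted p values are edgeR's unless DESeq2 1.42.0 or limma 3.58.1 (on log2(TPM + 1), genes at 1 TPM in at least 2 libraries) is named. Alternatives were other size factors, no filter, those tests, protein-coding genes, a replicate block, the 2 groups alone and leaving out each library. Tests were checked on simulated data with 1 spread for all genes. In G-CSF against untreated marrow, 34% of log2 changes of size 1 and 98% of those of size 2 were recovered. A member that did not pass may therefore still have changed. The 18 run 2 columns were not compared. All 9 members were named in each comparison. From other lists at most 4 genes past the test were named, those with the largest change. The genes most like the members were ranked over 9 libraries at 5 CPM or more, without receptor segments and predicted models.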

Additional observations from a re-analysis of the deposited data

Results flagged for a closer look

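Run 2 libraries enter no comparison here, but 7 of the 15 labelled precursor held more early B cell transcript than any run 1 precursor library, whose summed TPM over the 9 genes ran from 2.47 to 23.8. The sums were 70.2 in the library labelled run 2 precursor G-CSF replicate 1, 137 in ZA replicate 7, 149 in untreated replicate 2, 156.5 in untreated replicate 7, 175 in ZA replicate 5, 199 in combined replicate 3 and 251 in G-CSF replicate 2. Run 1 marrow ranged from 182 to 249.8. Of the 3 libraries labelled run 2 marrow, G-CSF and untreated were at 2.66 and 8.63 and ZA at 153. Csf1r, the gene of the sorted receptor, ran from 9.05 to 13.4 TPM in run 1 marrow and from 43.3 to 77.9 in run 1 precursors. Of the 7 libraries, G-CSF replicate 1 was at 61.3 TPM, inside the run 1 precursor range. Combined replicate 3 (31.4) and untreated replicate 7 (17.9) lay between the ranges. ZA replicate 7 (11.3), untreated replicate 2 (10.8), ZA replicate 5 (7.87) and G-CSF replicate 2 (8.44) lay within or below the marrow range. So 6 of the 7 were outside the run 1 precursor range in both measures, and G-CSF replicate 1 in the summed level alone. The libraries labelled run 2 marrow G-CSF and untreated were at 56.8 and 71.9 TPM, within the run 1 precursor range in both measures. The cause was not tested.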

How the results depend on the processing

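Member calls were few and several turned on the setting. Shares of all genes called are given for edgeR with the filter alone. With 1 call in G-CSF against untreated, omitting the filter gave 2 (Rag1, Pax5), and limma on log2(TPM + 1) called Vpreb3 in place of Rag1. With 1 call in combined against ZA, limma on TPM gave 0 and on rescaled TPM 2 (Il7r, Vpreb3), and leaving out 1 library gave 0 to 1. With 0 in combined against untreated, limma on TPM gave 4 and no filter 1 (Pax5), and leaving out 1 library 0 to 1. With 0 in combined against G-CSF, DESeq2 gave 1 (Il7r) and no filter 1 (Ebf1). With 0 in ZA against G-CSF, no filter gave 1 (Ebf1). With 0 for the interaction, DESeq2 and no filter gave 2 each (Rag1, Il7r). With 0 in precursors with against without G-CSF, limma on TPM gave 1 (Pax5). The cause was not tested. No called value changed sign; uncalled members did in 16 of 78 values on TPM, 13 of 84 on rescaled TPM, 11 of 90 with the block and 58 of 783 without 1 library.

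Same-numbered libraries of the same tissue did not deviate together (r from -0.04 to 0.11 over 9 marrow pairs and -0.05 to -0.03 over 3 precursor pairs). With 2 to 3 libraries a group these r are not independent, so they cannot exclude that the numbers pair samples. Marrow was not set against precursors of the same number. A replicate block gave 1 member call in G-CSF against untreated, 1 in combined against ZA, 8 in precursors against marrow (without Pax5) and 0 elsewhere. TPM moved the all-gene medians by 0.31 (ZA against untreated) to 0.87 (combined against untreated). For all genes, G-CSF against untreated gave 727 higher and 1019 lower calls in edgeR, and 1952 and 166 on TPM. Combined against untreated gave 467 and 670 in edgeR, and 4037 and 128 on TPM. Precursors against marrow gave 3611 and 4186, and 8246 and 1392. In precursors members lie at low counts (Rag1 at 1 to 28.3).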
